A study of Nothobranchius furzeri with 20 samples.

Results

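The subject of these results is a set of 17 genes whose RNA was higher in every liver library of 27-week fish than in any liver library of 9-week fish. They were chosen by their measured values in these same libraries, from 26739 genes in the deposited count tables, and 16516 of these held enough counts to be tested. A gene was a member when its lowest value in the 5 libraries at 27 weeks exceeded its highest value in all 15 libraries at 9 weeks, its 27-week median was at least 1 above the 9-week 1% median (a 2-fold difference), and its 27-week median was at least 1 CPM, the count scaled to a fixed total per library. Values were log2(CPM + 0.5) of counts scaled by TMM, edgeR's correction for differences in library composition. The identifiers are not paired with gene names in the deposited files, and 0 of them matched RefSeq's table for NfurGRZ-RIMD1, so no function, position or sequence is given for a member. The members are numbered 1 to 17 from the largest gap between the 27-week and the 9-week values, and 4 of them are also given by identifier.

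All libraries came from livers of male turquoise killifish (Nothobranchius furzeri) of the strain MZM-04/10p treated with rotenone, dosed at a stated percentage of its LC50, which is a median lethal concentration. There were 5 libraries in each of 4 groups: 27 weeks of age at 1% of the LC50, and 9 weeks of age at 0.1%, 1% and 10%. Every group carried rotenone, and 27-week fish at other doses were not analysed here, so age and an age-dependent response to the drug cannot be told apart. Neither the source fish of each library nor the length of treatment is in the labels, so a p-value reflects library-to-library spread, which may be technical.

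The turquoise killifish is an annual fish with a very short natural lifespan and is used to study ageing in vertebrates. Its liver, as in other fish, makes plasma proteins, stores and releases lipid and glucose, and metabolises foreign compounds. Rotenone blocks complex I of the mitochondrial respiratory chain, the enzyme that passes electrons from NADH to ubiquinone.

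Library totals ran from 23546777 to 33870946 counts, and depth overlapped between groups. Replicate 5 of the 9-week 1% group stood apart: its Spearman correlation across genes with the other libraries of its group was at most 0.849, where the other 4 correlated with each other at 0.932 or more. Without it the rule gave 15 genes, 14 of them among the 17. Libraries of the 9-week 0.1% group also agreed less, with a lowest correlation of 0.868. The lowest was 0.927 at 27 weeks and 0.931 at 9 weeks and 10%. Marker genes of liver or of other cell types could not be looked up, since the genes have no names. In bulk tissue, fewer cells of a type and less RNA per cell cannot be told apart.

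The rule set the members apart by values of these same libraries, so their difference between 27 and 9 weeks is a description and carries no test. The first criterion, no overlap of the 27-week libraries with all 9-week libraries, was met by 35 of the 16516 tested genes, or 0.212%, and all 3 criteria by 0.103%. Among genes over the CPM floor, 18 more met the first criterion with a median difference under 1. The member closest to the limit on overlap was member 17, whose lowest 27-week value lay 0.00047 above its highest 9-week value on the log2 scale, followed by member 16 at 0.0194. The nearest genes outside that limit overlapped, with gaps of -0.0531 and -0.0548. On the median difference, member 17 at 1.02 was just inside and a gene at 0.998 just outside. On the CPM floor, member 9 at a 27-week median of 1.12 CPM was just inside and a gene at 0.856 CPM just outside.

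**Figure D1:**
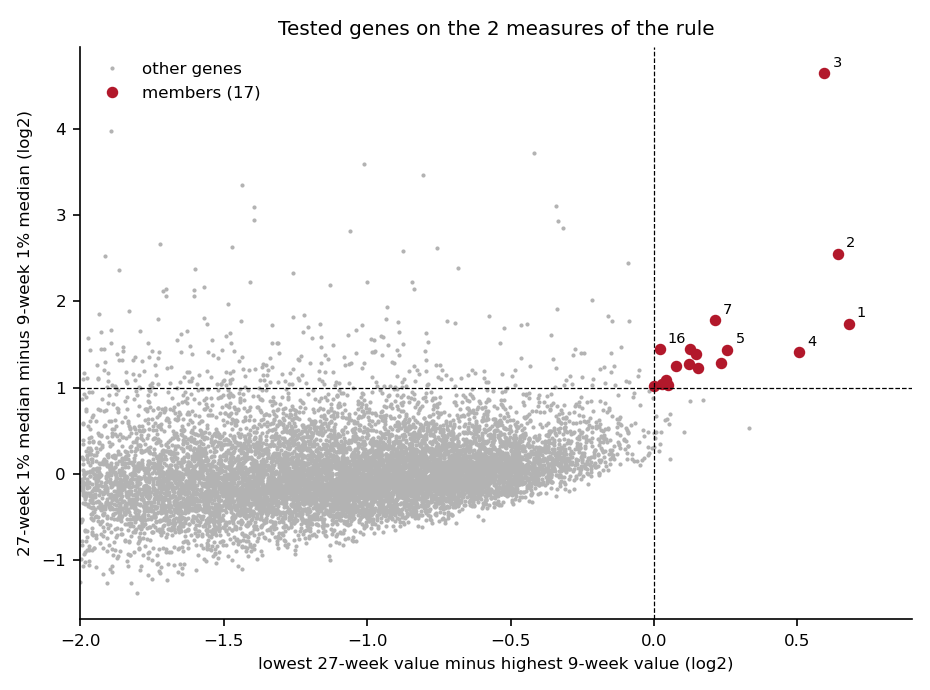
Tested genes with a 27-week median of 1 CPM or more, by the gap between the lowest 27-week and the highest 9-week value (x axis, log2; genes below -2 are not drawn) and by the 27-week 1% minus 9-week 1% median (y axis, log2). Dashed lines mark the limits of the rule, red points are the 17 members, some with their numbers, and most members lie close to the corner where both limits meet.

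The 17 members together took a small part of each library. They held 0.132% ± 0.013 of all counts at 27 weeks and 1%, against 0.0481% ± 0.0111 at 9 weeks and 0.1%, 0.04997% ± 0.0189 at 9 weeks and 1%, and 0.0278% ± 0.0030 at 9 weeks and 10% (SD, n = 5 each). Members 16, 13, 4, 1 and 10 weighed most on this share, with means of 337, 216, 193, 123 and 112 CPM at 27 weeks. The next highest mean was 39.3 CPM, in member 3. All 17 had a count in each of the 27-week libraries, and 16 had a count in all 20 libraries. The exception was member 9, which was at 0 in 2 libraries of the 9-week 10% group.

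Gene Nfu_g_1_003492, member 1, had the widest gap of the 17. Its level was 174, 89.5, 124, 134 and 96.4 CPM in the 27-week 1% livers. At 9 weeks it was 55.7, 36.5, 38.8, 35.9 and 55.1 CPM at 0.1%, 30.8, 37.1, 36.6, 48.0 and 20.33 CPM at 1%, and 27.7, 36.5, 36.7, 35.03 and 33.8 CPM at 10%. The 27-week libraries thus all lay above the highest 9-week library, which was replicate 1 at 0.1%, and the 3 dose groups at 9 weeks overlapped. Means were 123 ± 34 CPM at 27 weeks and 34.6 ± 10.1 CPM at 9 weeks and 1% (SD, n = 5 each), and the fitted log2 difference was 1.85 with a standard error of 0.23.

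Gene Nfu_g_1_000355, member 2, was a gene of low counts with a larger fold difference. It stood at 5.36, 4.91, 9.23, 7.88 and 1.95 CPM in the 27-week 1% livers. At 9 weeks it was between 0.0982 and 0.735 CPM at 0.1%, between 0.210 and 0.990 CPM at 1%, and between 0.280 and 1.07 CPM at 10%. The lowest 27-week library, replicate 5, was above the highest 9-week library, replicate 1 at 10%. The level was 11.4-fold higher than at 9 weeks and 1%, with a standard error of 0.55 on the log2 scale.

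Member 3 differed most in fold between the 27-week and the 9-week 1% group among the 17, and also spread most among the 27-week livers. It was at 24.8, 59.8, 50.8, 49.4 and 11.8 CPM in 27-week livers, against 7.63, 1.65, 0.839, 1.49 and 0.359 CPM in 9-week livers at 1%. The lowest 27-week library was again replicate 5, still above replicate 1 of the 9-week group. Its standard deviation over the 27-week libraries was 0.960 on the log2 scale, where the median over the members was 0.275. The fitted log2 difference was 4.03 with a standard error of 0.77, or 16.4-fold. The value of 7.63 CPM in replicate 1 at 9 weeks and 1% weighs on this size, and the difference was 5.17 without that library.

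Member 4 was at 206, 168, 155, 267 and 172 CPM in the 27-week 1% livers, against 31.4, 64.2, 99.5, 84.2 and 5.32 CPM in the 9-week 1% livers. The lowest of these was replicate 5, the library that stands apart. The groups did not overlap, and the fitted log2 difference was 1.78 with a standard error of 0.49.

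The other 13 members had narrower gaps, of 0.255 or less on the log2 scale. Their 27-week medians ran from 1.12 CPM in member 9 to 374 CPM in member 16, and their log2 changes against 9 weeks at 1% from 0.87 in member 17 to 2.62 in member 9 (3.29 without replicate 1 at 9 weeks and 1%). For 7 of the 17 members the lowest 27-week library was replicate 5 and for 6 it was replicate 1, while the highest 9-week library was replicate 1 at 0.1% for 5 members and replicate 1 at 1% for 4. The plot of levels by library shows this uneven contribution, which was not counted over all tested genes.

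Among these, members 5, 6 and 7 were the next in order of the gap. Member 5 ran from 12.6 to 26.6 CPM at 27 weeks and 1%, against 1.34 to 10.5 CPM at 9 weeks and 0.1%, 2.45 to 10.4 CPM at 1% and 1.12 to 3.72 CPM at 10%. Member 6 ran from 10.2 to 14.2 CPM at 27 weeks and 1%, against 2.77 to 5.89 CPM at 9 weeks and 0.1%, 3.37 to 8.62 CPM at 1% and 2.20 to 6.597 CPM at 10%. Member 7 ran from 23.0 to 30.2 CPM at 27 weeks and 1%, against 4.36 to 19.7 CPM at 9 weeks and 0.1%, 3.95 to 10.7 CPM at 1% and 6.12 to 15.2 CPM at 10%. The 9-week groups overlapped in all 3, and 1 library at 0.1% set the ceiling of member 7, which otherwise stayed at 15.2 CPM or less at 9 weeks.

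In members 11, 12, 14, 15 and 16 the lowest 27-week library stood only a little above the highest 9-week one. Member 11 ran from 4.88 to 7.27 CPM at 27 weeks and 1%, against a highest 9-week value of 4.45 CPM, at 0.1%. Member 12 ran from 15.997 to 30.4 CPM at 27 weeks and 1%, against a highest 9-week value of 15.2 CPM, at 0.1%. Member 14 ran from 20.5 to 33.7 CPM at 27 weeks and 1%, against a highest 9-week value of 19.9 CPM, at 10%. The ceiling thus lay in a different dose group from gene to gene. Member 15 ran from 2.14 to 3.62 CPM at 27 weeks and 1%, against a highest 9-week value of 2.09 CPM, at 0.1%. Member 16, the most highly counted of the 17, ran from 263 to 407 CPM at 27 weeks and 1%, against 259.5 CPM in the highest 9-week library, at 1%.

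**Figure D2:**
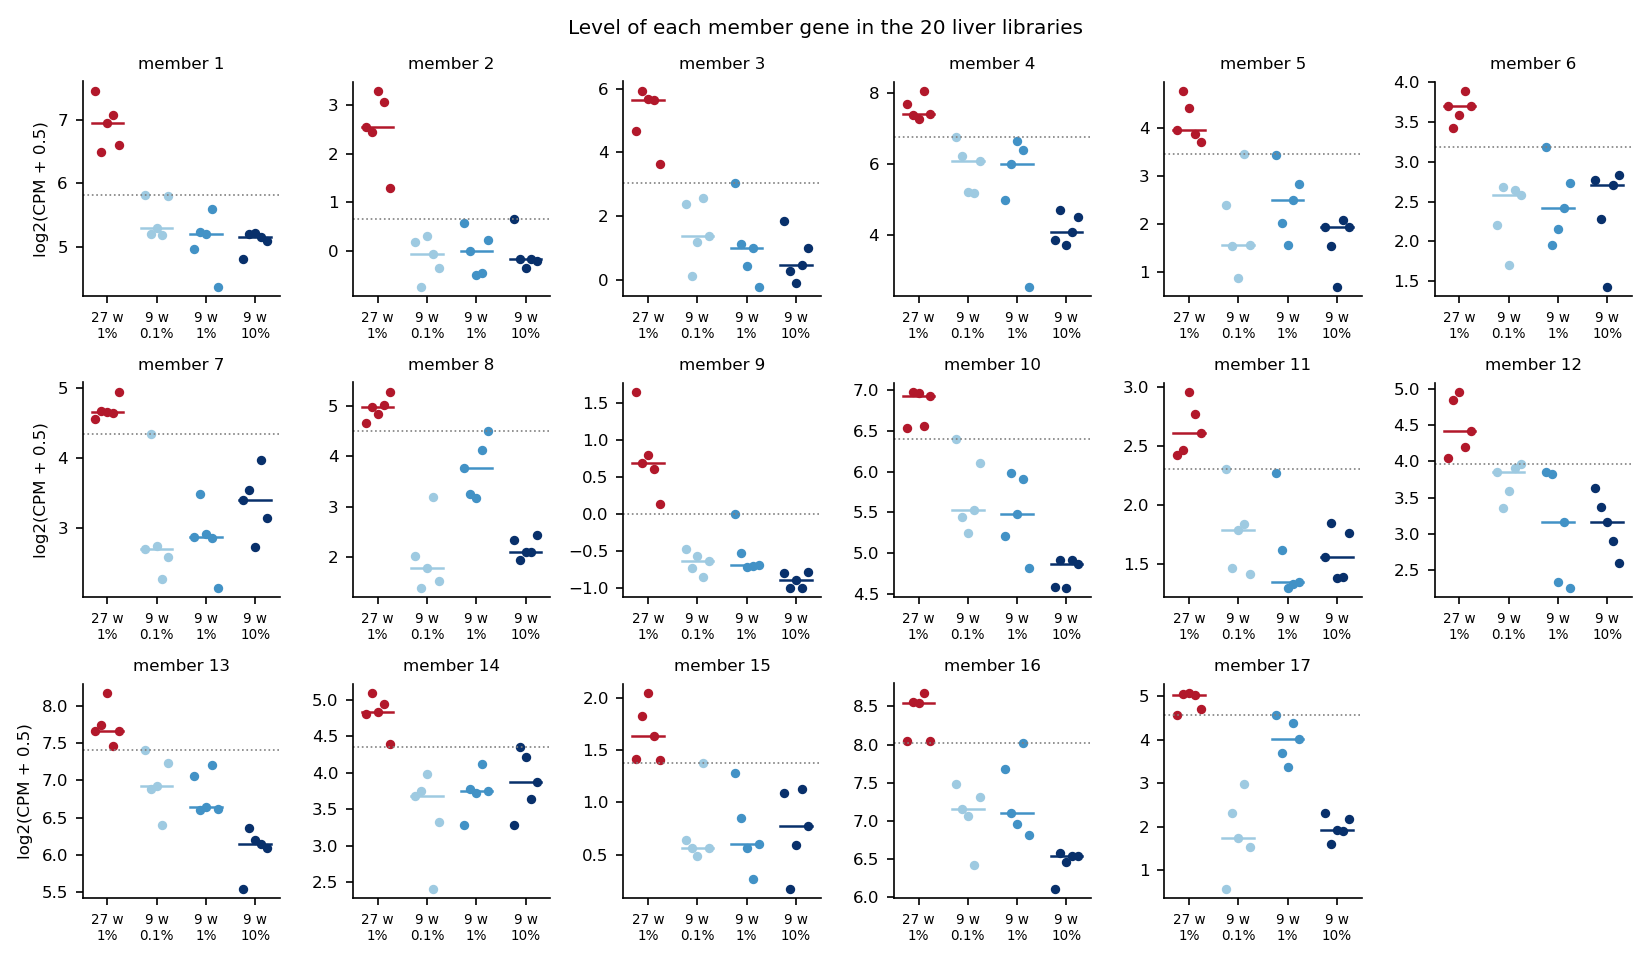
Level of each of the 17 members in the 20 libraries, as log2(CPM + 0.5) on the y axis, in 1 panel per member. Points are libraries, in replicate order within a group, short lines are group medians, and the dotted line is the highest 9-week value. All 5 red points (27 weeks, 1%) lie above it in each panel, by a margin that shrinks from member 1 to member 17.

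In edgeR's fit of all 20 libraries, 12 of the 17 members were called higher at 27 weeks than at 9 weeks at the same 1% dose (adjusted p under 0.05), where 0.932% of all tested genes were called higher. Members 4, 5, 8, 15 and 17 were not called, and 0 members were called lower, where 1.14% of tested genes were. The median log2 change was 1.29 over the members and -0.04 over all tested genes. The rule used this contrast, so nothing is read from these counts. Among the 12 calls, only those of members 1 and 2 held under all 25 other settings. That of member 3 ended in 2, without replicate 3 at 27 weeks and when the other groups were left out of the fit. Those of members 6 and 14 ended most often, in 16 and 15 settings. The number called was 6, 7, 5, 2 and 6 without replicate 2 or 5 at 9 weeks and 1%, or replicates 2, 3 or 5 at 27 weeks, and 3 when only both groups were fitted. Calls fell over all tested genes as well. In the same order, 62, 82, 26, 13 and 59 genes were called higher, and 21 with only both groups fitted, against 154 in the main fit.

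Against the other 9-week doses, which differ from the 27-week group in dose as well as age, all 17 members were called higher than at 10% (8.82% of tested genes called higher, 5.64% lower) and 16 higher than at 0.1% (6.36% higher, 5.46% lower). In both, 0 members were called lower. These comparisons share the 27-week libraries and were used by the rule. The median log2 change of the members was 1.94 against 10% and 1.48 against 0.1%. Member 12 was the one not called against 0.1%, with a fitted log2 difference of 0.81 and a standard error of 0.31. Against 0.1%, the call of member 4 ended in 14 of the 25 other settings and that of member 15 in 6. Against 10%, the calls of members 14 and 15 ended in 3 and 4. The 0.1% libraries form a count table of their own, so a difference between tables and the dose cannot be told apart there or in the 9-week comparisons with 0.1%.

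The dose comparisons at 9 weeks contain no 27-week library. The rule set the same ceiling for all 3 doses, and the 9-week 1% median also entered the limit on the median difference, so the members were chosen in part on the level of that group. The 9-week comparisons share libraries with each other.

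At 9 weeks, 7 of the 17 members (41.2%) fell at 10% relative to 1%, where 13.6% of all tested genes were called lower. Members 4, 8, 9, 10, 13, 16 and 17 made up this count, with log2 changes between -2.36 in member 9 (-1.69 without replicate 1 at 1%) and -0.74 in member 13. In 5 of them, members 8, 9, 13, 16 and 17, every library at 10% lay below every library at 1%, which was so for 9% of tested genes. Member 9 rested on counts of 2, 0, 1, 0 and 2 at 10%, against 19, 5, 3, 3 and 2 at 1%. Its groups met at a count of 2, so their separation rests on the scaling. In 0 members did all libraries at 10% lie above those at 1%, against 6.35% of tested genes. By edgeR, 0 members were called higher at 10%, where 8.03% of tested genes were, and 0 were higher at an unadjusted p under 0.05 or by DESeq2 or limma voom. The median log2 change was -0.74 over the members and -0.01 over all tested genes. The members were chosen for low values in all 9-week groups together, and whether their share differs from the background was not tested. The call of member 4 ended without replicate 3 or 4 at 1%, without replicate 1, 3 or 4 at 10%, when the other groups were left out of the fit, and by limma voom, with adjusted p up to 0.165 over these settings. That of member 9 ended without replicate 1 at 1% or replicate 2 or 4 at 10% (edgeR adjusted p up to 0.0972). That of member 10 ended without replicate 2 or 4 at 1% or replicate 1 or 3 at 10% (edgeR adjusted p up to 0.0827).

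Gene Nfu_g_1_002517, member 17, had the smallest p among the members that fell. It was at 4.51, 2.53, 3.29, 3.25 and 4.02 CPM at 10%, against 23.31, 12.4, 9.89, 20.4 and 15.7 CPM at 1%. The ranges did not overlap, and means were 3.52 ± 0.76 CPM at 10% and 16.33 ± 5.53 CPM at 1% (SD, n = 5 each), and the log2 difference was -2.19 with a standard error of 0.37 (adjusted p = 0.000323, edgeR). At 27 weeks and 1% the same gene was at 23.32, 32.8, 33.1, 32.3 and 25.8 CPM, so the gap between the ages at 1% was the narrowest of the 17.

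Gene Nfu_g_1_012354, member 8, followed a like order of groups. It was at 4.51, 3.34, 3.78, 3.76 and 4.91 CPM at 9 weeks and 10%, against 13.1, 9.05, 8.56, 17.1 and 22.4 CPM at 9 weeks and 1%. Every library at 10% was lower than every library at 1%, and the log2 difference was -1.77 with a standard error of 0.34 (adjusted p = 0.000916, edgeR). At 27 weeks and 1% it was at 24.96, 31.3, 28.1, 31.9 and 38.3 CPM, above all of these.

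These same 2 members were also the ones that rose at 1% relative to 0.1% at 9 weeks. In the fit of all 20 libraries they were 11.8% of the members, where 11.6% of all tested genes were called higher. This share was near the background. With only both groups fitted, 659 genes in place of 1912 were called higher, and both members were still called. Nfu_g_1_002517 was at 16.33 ± 5.53 CPM at 1% and 3.63 ± 2.47 CPM at 0.1% (SD, n = 5 each), higher in 5 of 5 libraries than in any at 0.1%, by 2.16 on the log2 scale with a standard error of 0.37 (adjusted p = 0.000465, edgeR). Nfu_g_1_012354 was at 14.0 ± 5.8 CPM at 1% and 3.92 ± 2.71 CPM at 0.1%, higher in 4 of 5 libraries, by 1.82 on the log2 scale with a standard error of 0.34 (adjusted p = 0.000864, edgeR). Ranges lay wholly above in 1 member (6.07% of tested genes) and wholly below in 0 (4.45%). The calls of both genes held under every setting tried, in both dose comparisons. By edgeR, 0 members were called lower at 1% than at 0.1%, where 7.82% of tested genes were, and 0 were lower at an unadjusted p under 0.05 or by DESeq2 or limma voom.

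Between the 10% and 0.1% doses at 9 weeks, edgeR called 0 of the 17 members in either direction, where it called 0.0182% of tested genes higher and 0.0303% lower. An unadjusted p under 0.05 by edgeR was reached by 5 members, and by 1079 of the 16516 tested genes. DESeq2 called 3 members lower, among 117 genes called lower. With limma voom 0 members were called, where 3 genes were lower. Of the members, 11 had a log2 change below 0, and the median over the members was -0.38. The median over all tested genes was also below 0, at -0.03, and their share below 0 was not counted. In members 4, 10 and 13 every library at 10% lay below every library at 0.1%, as in 1.76% of tested genes. The opposite order was seen in 0 members and in 0.648% of tested genes. Without replicate 5 at 9 weeks and 1% or replicate 4 at 0.1%, 1 member was called lower, among 17 and 19 genes called lower.

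Member 10 was at 23.5, 29.6, 23.32, 29.7 and 28.7 CPM at 10%, against 84.3, 43.0, 37.5, 45.5 and 68.1 CPM at 0.1%, a log2 difference of -1.04 with a standard error of 0.24 (adjusted p = 0.141, edgeR). Member 13 was at 46.3, 81.7, 73.3, 70.1 and 67.5 CPM at 10%, against 169, 117, 121, 83.8 and 150 CPM at 0.1%, a log2 difference of -0.91 with a standard error of 0.21 (adjusted p = 0.141, edgeR). Member 4 was at 12.8 to 25.7 CPM at 10%, against 35.8 to 109 CPM at 0.1%, a log2 difference of -1.82 with a standard error of 0.50 (adjusted p = 0.254, edgeR). In these 3 members the dose groups did not overlap, and the adjusted p-values missed the threshold.

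**Figure D3:**
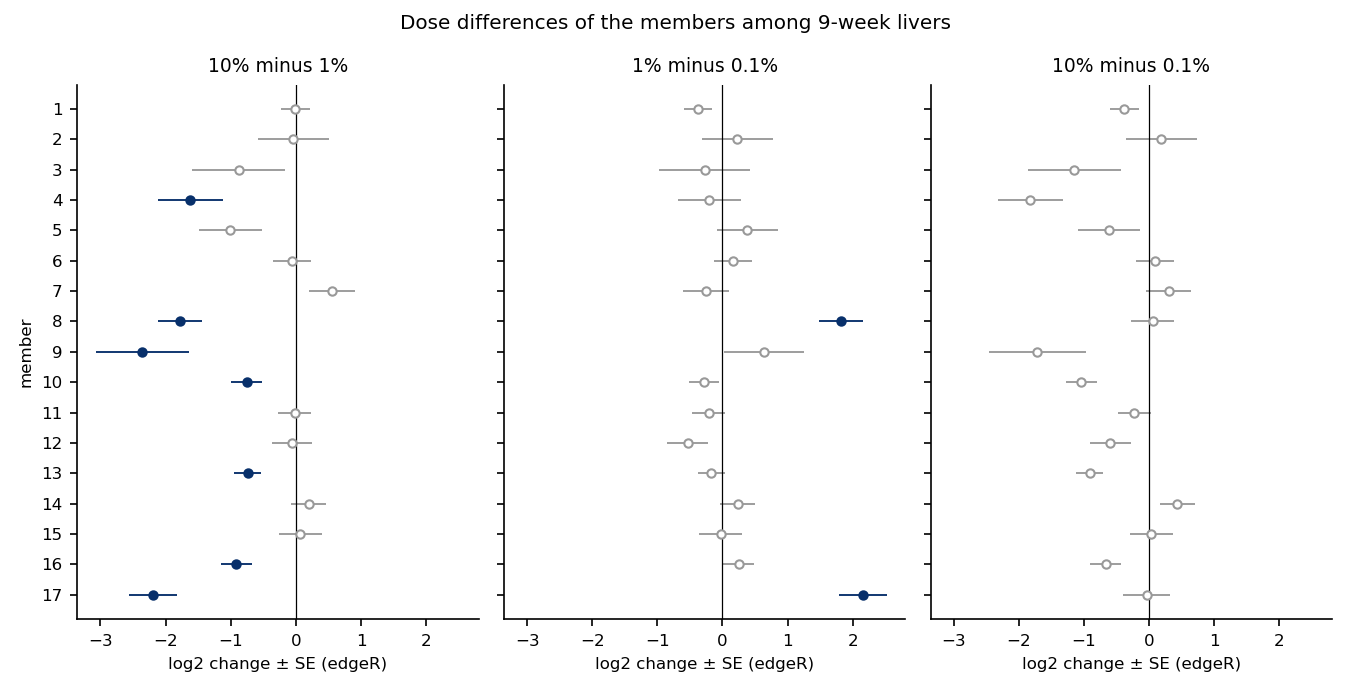
Log2 change ± SE of each member (y axis) in the 3 dose comparisons among 9-week livers (x axis, edgeR, n = 5 libraries per group). Filled points passed an adjusted p under 0.05: 7 members lower at 10% than at 1%, members 8 and 17 higher at 1% than at 0.1%, and 0 members between 10% and 0.1%.

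The members did not follow a single order of the 9-week groups. The group with the highest mean on the log2 scale was 0.1% for 7 members, 1% for 7 and 10% for 3, and the group with the lowest mean was 10% for 7, 1% for 5 and 0.1% for 5. Members 1, 2, 3, 5, 6, 7, 11, 12, 14 and 15 were not called in any of the 3 dose comparisons. For member 1 the log2 difference between 10% and 1% was -0.01 with a standard error of 0.22 (adjusted p = 0.989, edgeR). Its level at 27 weeks was 3.60 times that at 9 weeks and 1%, 3.62 times that at 10% and 2.78 times that at 0.1%.

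Gene lengths were recovered from the ratio of count to the authors' RPKM-labelled value, so that levels could be set side by side per length. The members were 609 to 10245 bases long, with a median of 4898, and 12 of the 17 were longer than the median tested gene of 2745 bases. Longer genes collect more counts at the same level, and the part of length in meeting the rule was not tested. The median level of the members per length was 8.50 CPM per kilobase at 27 weeks and 1%, against 3.57 CPM per kilobase at 9 weeks and 1%. Tested genes had medians of 2.79 and 2.84 in these 2 groups. The rule asked for a 27-week median of 1 CPM or more and a 2-fold difference, so it fixed these member levels in part. The tested genes were held to no such floor, and the levels are a description. Member 16 had the highest level per length of the 17, with 43.1 CPM per kilobase at 27 weeks, above 93.8% of the tested genes with a length, against 15.8 CPM per kilobase at 9 weeks and 1%. Member 9 had the lowest, with 0.536 CPM per kilobase at 27 weeks and 0.0574 at 9 weeks and 1%.

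The rule, by asking for no overlap between the ages, also limits how far a member can spread within a group, so the following is a description. The median standard deviation of a member's log2 value was 0.275 at 27 weeks and 1%, 0.421 at 9 weeks and 0.1%, 0.488 at 9 weeks and 1%, and 0.389 at 9 weeks and 10%, where the medians over all tested genes were 0.267, 0.369, 0.513 and 0.262. Averaged over the members, replicate 3 at 27 weeks lay 0.19 above its group mean on the log2 scale, with 13 of 17 members above it. Replicate 5 lay 0.29 below, with 4 of 17 above, and replicate 1 lay 0.08 below. With library totals alone in place of TMM, replicate 5 lay 0.13 below and replicate 1 was the lowest, 0.21 below. Such deviations were not taken over all tested genes, so they are not read as particular to the members.

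Members were also compared by their deviations from the group means over all 20 libraries. The median Pearson r over their 136 pairs was 0.127 (range -0.709 to 0.768), against 0.00342 between members and other tested genes. Without replicate 5 at 9 weeks and 1%, the library that stands apart, these medians were 0.0873 and -0.00435. With all 20 libraries, an r above 0.5 was found in 13.2% of the member pairs, against 6.70% of the pairs of a member with another gene. Over the 5 libraries at 27 weeks alone these shares were 30.1% and 19.7%. All points share libraries and depth, and no test was made. The strongest pairs were members 13 and 16 with r of 0.768, members 1 and 4 with 0.721, and members 2 and 3 with 0.685, while members 14 and 15 moved most in opposite directions, with r of -0.709.

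Membership held under more of the settings tried for some genes than for others. Apart from rescaling, leaving out a library or changing the offset cannot make the ages overlap. Such settings bear mainly on the limits on the median difference and the CPM floor. With each of the 20 libraries left out in turn, 13 members met the rule every time, while members 12, 13, 15 and 17 left it at least once, and the number of genes meeting it ran from 15 to 30. Leaving out replicate 1 or replicate 5 at 27 weeks gave 30 genes each, with all 17 members kept in both. With DESeq2 size factors 14 genes met the rule, 13 of them members. With library totals alone 20 did, 12 of them members. Under these scalings, the other offsets, the left-out 0.1% table and the left-out libraries, 9 members (1 to 8 and 10) met the rule each time.

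**Figure D4:**
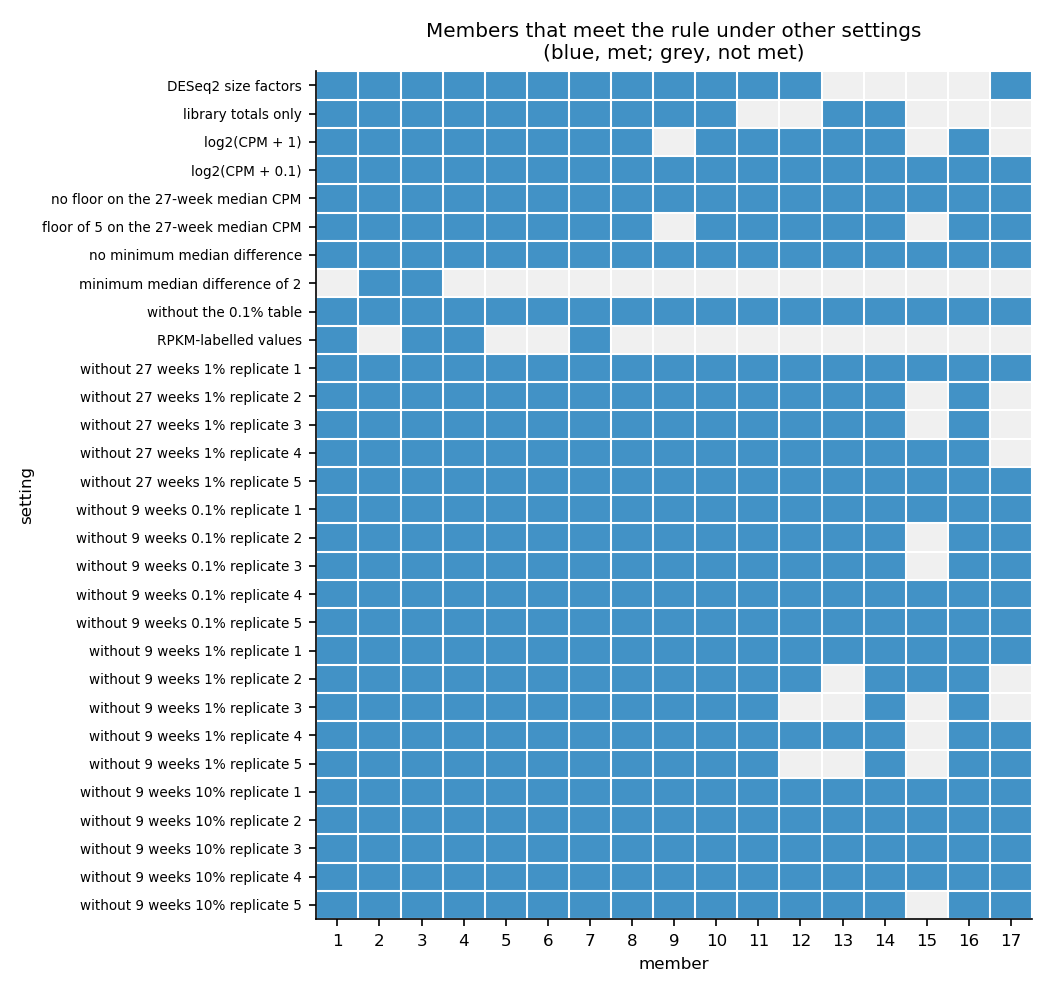
Members (x axis) that met the rule under each other setting (y axis), blue where met and grey where not. Members 1 to 8 and 10 are blue in all rows other than a minimum median difference of 2 and the RPKM-labelled values, and members 15 and 17 are grey most often among the rows that leave out a library.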

How the data were processed

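The data were 20 liver RNA sequencing libraries in 4 groups of 5. The authors deposited raw counts per gene, 15 libraries in one table and 5 (9 weeks, 0.1%) in another; featureCounts 1.4.6-p4, STAR 2.4.1d and CASAVA 1.8.2 are the tools listed, per the submitters' processing notes. Not given in the sources used here are settings, genome build, annotation and strand, so counts of overlapping genes and near-identical copies are uncertain. A further 10 columns match no listed sample and were left out. The authors also deposited RPKM-labelled values, treated as a score because library totals had been recycled down the rows with a period of 35; they served to recover lengths of 16229 genes and as an alternative. Replicates differed beyond sampling noise (chi-square per degree of freedom 53.6 or more over 40 pairs).

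The rule was applied to TMM-scaled CPM with an offset of 0.5. The test was that of edgeR 4.0.16 under R 4.3.3 (filterByExpr, TMM, quasi-likelihood F-test, 1 mean per group, all 20 libraries, two-sided) with Benjamini-Hochberg adjustment over 16516 genes at 0.05; SE is the log2 change over the square root of F. The procedure was tested on simulated data. DESeq2 1.42.0, limma 3.58.1 voom, other filters, scalings and left-out libraries were alternatives. Members and lists were chosen with earlier results of these data known. Genes given by identifier were the 2 members with the widest gap and, per dose comparison, up to 2 called members in each direction with the smallest p. Planned marker lists could not be used without gene names.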

Additional observations from a re-analysis of the deposited data

Results flagged for a closer look

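Among the values of the 17 members in the 4 groups, 68 sets of 5 libraries, 5 held a library that lay far from the other 4, with a gap to the nearest of more than 0.71 of the whole range on the log2 scale. Chance flags about 1 in 20 sets of this size. Member 2 had 1.07 CPM in replicate 1 at 9 weeks and 10%, where the next highest library had 0.391 CPM. Member 7 had 19.7 CPM in replicate 2 at 9 weeks and 0.1%, where the next highest had 6.19 CPM. Member 9 had 0.495 CPM in replicate 1 at 9 weeks and 1%, where the next highest had 0.192 CPM. Member 15 had 2.09 CPM in replicate 4 at 9 weeks and 0.1%, where the next highest had 1.07 CPM. Member 16 had 68.9 CPM in replicate 1 at 9 weeks and 10%, where the next lowest had 87.5 CPM. In the first 4 of these the library set the highest 9-week value, and so the gap, of its member. None of the 5 was a 27-week library, but the rule itself selects against a low library at 27 weeks. The members were chosen by these values, so the rate of 1 in 20 is only a rough guide.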

How the results depend on the processing

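No paired analysis was possible because the labels give no replicate numbers; those used here only name libraries. All 54 calls of members in the 6 comparisons kept their direction in the 25 other settings. Most of these calls were between the ages, where the rule had placed every older library above every younger library. Their direction could hardly reverse, so nothing is read from its being kept there. The rule did not place the dose groups in this way. The settings reuse the same libraries, however, and several of the called members had dose groups that did not overlap. Nothing is read from the kept direction between doses either. Of 1349 values, 1228 also kept their side of the threshold and 121 did not.

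The number of genes meeting the rule, 17, was 35 with no minimum median difference, 2 with a minimum of 2, 46 without the 0.1% table and 10 with the RPKM-labelled values (4 of them members), and 15 to 30 with a library left out.

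For 27 weeks against 9 weeks at 1%, 154 genes were higher and 188 lower. These counts were 62 and 73 with no filter on low counts, 598 and 870 with DESeq2, 64 and 64 with limma voom, and 21 and 4 with only both groups fitted, and ran from 13 to 236 and from 12 to 375 with a library left out. The 12 members called were 3 with only both groups fitted and 2 to 15 with a library left out.

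For 27 weeks against 9 weeks at 10%, 1456 genes were higher and 932 lower, 2747 and 2053 with only both groups fitted, and 1129 to 2314 and 637 to 1424 with a library left out; members called were 15 to 17. Against 0.1%, 1051 were higher and 901 lower, 1354 lower with DESeq2, and 731 to 1667 and 605 to 1572 with a library left out; members called were 13 to 16.

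For 10% against 1% at 9 weeks, 1327 genes were higher and 2249 lower, 1451 lower with only both groups fitted, and 893 to 1640 and 1735 to 2571 with a library left out; members called lower were 5 to 7 and higher 0. For 1% against 0.1%, 1912 were higher and 1292 lower, 659 and 432 with only both groups fitted, and 1390 to 2110 and 887 to 1505 with a library left out; members called higher were 2 and lower 0. For 10% against 0.1%, 3 were higher and 5 lower, 22 and 117 with DESeq2, 3 lower with limma voom, and 2 to 6 and 1 to 31 with a library left out; members called lower were 3 with DESeq2 and 0 to 1 with a library left out. The cause of these shifts was not tested. Low members such as member 9, at 0.495 CPM or less in all 9-week libraries, rest on few counts there. The part of depth was not tested.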
